A study of Mus musculus with 8 samples.

Results

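The near intergenic sites of mouse CD8-positive dendritic cells described here are 10218 regions of open chromatin, 23.1% of the 44328 regions found in both of 2 ATAC-seq samples on the autosomes and X. Each is a merged stretch that holds a peak of both samples, with an overlap of at least 1 bp. Its centre lies outside every protein-coding gene and between 1 and 50 kb from the nearest end of one, and it is assigned to that gene. No measured level entered this choice beyond the presence of a peak in both lists. The assignment gives a neighbour and does not show which gene a site acts on. ATAC-seq marks open chromatin with a transposase that cuts and tags accessible DNA in nuclei. The series holds 8 samples in 4 groups of 2, and the ATAC-seq samples come from unstimulated cells. In the other 6 samples IRF3, IRF5 or IRF9 was immunoprecipitated 90 min after poly(I:C), CpG oligonucleotide or interferon-beta, and their binding was not analysed here. The labels call the source both splenic dendritic cells and a dendritic cell line, and give no strain, age or genotype in the fields used here. They do not say whether each replicate was a culture of its own, so the spread between replicates may be technical.

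CD8-positive dendritic cells are the cross-presenting conventional dendritic cells also called cDC1, which depend on the transcription factors Batf3, Irf8 and Id2. Accessible sites between genes include enhancers, insulator sites bound by CTCF and starts of noncoding genes. In myeloid cells many enhancers are bound by the lineage factor PU.1, by C/EBP, RUNX and AP-1 factors, and by interferon regulatory factors at interferon-stimulated response elements (ISREs).

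Some of the near intergenic sites lie at starts of long noncoding RNAs (lncRNAs), and for these the DNA can be shown. RefSeq on GRCm38.p6, which has the chromosome sequences of mm10, gave windows from 250 bases before to 50 bases after the starts of 3232 lncRNA genes lying 1 to 50 kb from a coding gene. A near intergenic shared region overlapped 235 of these windows, or 7.27%, against 45.4% of the 17274 start windows of coding genes that were overlapped by any shared region. The overlapped lncRNA windows had a median of 53.3% G and C and 9 CpG, against 47.7% and 3 CpG in the other 2997 windows. The CTCF letters CCA, 2 bases of any kind, AG, 2 of any kind and GGC occurred on either strand in 7.23% of the overlapped windows, against 2.803% of the others and 2.44% of all 32619 start windows in the table. The PU.1 letters GAGGAAGT occurred in 6.81% of the overlapped windows, against 3.37% of the others and 3.22% of all. The ISRE letters GAAA, 2 bases of any kind and GAAA were found in 4.26% of the overlapped windows, 3.54% of the others and 3.46% of all. Shares for the AP-1 letters TGANTCA were 10.2%, 10.4% and 7.85% in the same order, and for the RUNX letters TGTGGTT 5.96%, 6.71% and 5.29%. Patterns were searched separately, and their matches may overlap. In the overlapped windows the match lay inside the shared region in 15 of 17 windows for CTCF, 15 of 16 for PU.1 and 7 of 10 for ISRE. For AP-1 it did so in 15 of 24 windows and for RUNX in 9 of 14. Of the 235 overlapped windows 27 lay wholly inside a region, and the share expected from position alone was not counted. A match is a run of letters, not a bound site. The 5 windows below are shown because the match lies inside the shared region, with the matching letters in capitals and the window read in the direction of the lncRNA.
Gm5547: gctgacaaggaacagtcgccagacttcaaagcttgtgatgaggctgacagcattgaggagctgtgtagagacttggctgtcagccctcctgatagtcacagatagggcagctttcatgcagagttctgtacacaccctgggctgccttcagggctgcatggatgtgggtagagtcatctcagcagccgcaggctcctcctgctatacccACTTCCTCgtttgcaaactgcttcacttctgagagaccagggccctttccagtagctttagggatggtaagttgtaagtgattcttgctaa
Gm32051: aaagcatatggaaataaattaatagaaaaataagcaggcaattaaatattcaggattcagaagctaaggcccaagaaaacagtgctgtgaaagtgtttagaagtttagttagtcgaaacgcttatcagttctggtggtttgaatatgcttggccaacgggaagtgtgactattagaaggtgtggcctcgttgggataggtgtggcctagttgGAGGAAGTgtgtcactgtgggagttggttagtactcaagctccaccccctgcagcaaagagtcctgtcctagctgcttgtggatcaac
Gm30771: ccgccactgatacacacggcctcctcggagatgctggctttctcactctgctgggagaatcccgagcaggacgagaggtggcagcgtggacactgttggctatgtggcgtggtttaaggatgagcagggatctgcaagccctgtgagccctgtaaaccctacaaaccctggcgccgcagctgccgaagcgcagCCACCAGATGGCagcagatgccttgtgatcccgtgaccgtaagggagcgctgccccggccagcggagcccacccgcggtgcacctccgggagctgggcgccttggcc
Gm46229: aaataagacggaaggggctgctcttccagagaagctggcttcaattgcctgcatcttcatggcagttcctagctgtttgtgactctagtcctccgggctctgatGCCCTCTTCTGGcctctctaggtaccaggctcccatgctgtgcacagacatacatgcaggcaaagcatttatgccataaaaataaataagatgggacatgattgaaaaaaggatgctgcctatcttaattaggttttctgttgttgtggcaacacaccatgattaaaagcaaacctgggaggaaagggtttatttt
Gm9054: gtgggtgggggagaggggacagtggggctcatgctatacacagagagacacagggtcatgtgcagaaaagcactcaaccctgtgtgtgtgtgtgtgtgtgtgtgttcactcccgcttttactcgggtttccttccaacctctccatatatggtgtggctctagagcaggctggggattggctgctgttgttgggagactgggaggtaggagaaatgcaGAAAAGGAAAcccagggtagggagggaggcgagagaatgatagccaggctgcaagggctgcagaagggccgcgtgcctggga

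Gm5547 (chr3:105815317-105815616, plus strand) and Gm32051 (chr5:105409098-105409397, plus strand) carry a PU.1 match. The region at Gm5547 had fold enrichments of 13.03 in replicate 1 and 15.4 in replicate 2 and lies between Rap1a, a small GTPase, and Tmigd3. The region at Gm32051 had fold enrichments of 14.7 and 12.7 and lies between Lrrc8b and Gbp6, a guanylate-binding protein gene. Gm30771 (chr7:38061030-38061329, plus strand) and Gm46229 (chr10:67311383-67311682, plus strand) carry a CTCF match. Their regions were weaker, with fold enrichments of 7.52 and 7.15 at Gm30771, near the cyclin gene Ccne1, and of 7.89 and 7.90 at Gm46229, on the Nrbf2 side of the gap to the zinc finger gene Egr2. Gm9054 (chr3:95985260-95985559, plus strand), between Plekho1 and Anp32e, carries an ISRE match, and its region had fold enrichments of 6.09 and 4.96.

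MicroRNA genes were the other noncoding class with sequences to show. Within 1 kb of a hairpin in the RefSeq sequence table used here lay 16 near intergenic shared regions at 16 microRNA genes, and 3 of these regions overlapped the hairpin itself. Genes with no hairpin in that table, Mir6236 among them, are outside these counts. Their 28 mature microRNAs had 28 different seeds, so no seed was shared among them. Of these mature sequences 10 follow, with the seed, bases 2 to 8 from the 5′ end, in capitals. They are shown, chosen after their values were seen, for hairpins overlapped by a region or for microRNAs with well known roles.
mmu-miR-155-5p: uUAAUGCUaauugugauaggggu
mmu-miR-155-3p: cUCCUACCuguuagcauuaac
mmu-miR-146b-5p: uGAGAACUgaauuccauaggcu
mmu-miR-23a-3p: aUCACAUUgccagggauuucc
mmu-miR-27a-3p: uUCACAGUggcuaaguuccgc
mmu-miR-24-3p: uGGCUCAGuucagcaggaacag
mmu-let-7i-5p: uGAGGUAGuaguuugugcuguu
mmu-miR-193a-3p: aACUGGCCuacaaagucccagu
mmu-miR-7671-5p: aGGCUCCGcucuggcuagcuucc
mmu-miR-713: uGCACUGAaggcacacagc

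Mir155, whose microRNA is induced on activation of many immune cells, had a region 621 bp upstream of the hairpin (chr16:84713192-84713518) with fold enrichments of 10.7 and 14.3. A further region (chr16:84713955-84714188) overlapped the hairpin by 49 bp and had fold enrichments of 8.88 and 7.02. The nearest coding gene to both is Mrpl39, a mitochondrial ribosomal protein gene, at 4926 and 4209 bp. Mir146b, whose microRNA is known to dampen Toll-like receptor signalling, had a region 862 bp downstream with fold enrichments of 7.25 and 8.41. The Mir23a, Mir27a and Mir24-2 cluster shared a single region 496 bp upstream of Mir23a. It was low in fold enrichment, at 5.35 and 4.51, and held 21 and 25 reads. Mirlet7i had fold enrichments of 3.85 and 5.72, and Mir193a had 6.64 and 8.88. Mir7671, with Irf1 as the nearest coding gene, lies inside a region with 6.93 and 7.71, and Mir713 lies inside a region with 13.2 and 13.03.

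The lists held 50907 and 58276 peaks on these chromosomes in replicates 1 and 2. The value given for each peak is the authors' fold enrichment, a ratio of summit reads to the local background in that library. Peaks were ranked by −log10 q within their list, and a site's score is the mean of its ranks in both lists. The best site of a gene is the one with the highest score, which need not have the highest fold enrichment. The weakest listed summits had 7 reads in replicate 1 and 9 in replicate 2, and no peak was listed with a −log10 q below 3. At the near intergenic sites the summit held a median of 16 reads in replicate 1 and 23 in replicate 2, up to 125 and 143, and 1.27% and 0.411% of sites stood at the fewest reads listed. A site with fewer reads could not be detected at this depth. These numbers carry counting error only and no test over 2 samples was made. With 2 replicates of a single condition, all that follows is description.

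Near intergenic sites were about as dense and as strong as sites inside genes. They were narrower and simpler than sites at gene ends, as sites inside genes and far from genes were too. They numbered 17.2 per Mb of sequence at that distance, against 161 per Mb within 1 kb of a gene end, 17.7 per Mb inside genes and 4.52 per Mb beyond 50 kb. Their median fold enrichment in replicate 1 was 7.19, against 7.24 at gene ends, 7.16 inside genes and 7.58 far from genes. In replicate 2 the medians were 7.46 for near intergenic sites, 7.48 at gene ends, 7.53 inside genes and 8.62 far from genes. In median fold enrichment, near, gene end and inside sites thus differed by less than the gap between replicates, while far sites had the highest median in both. Summit reads gave another order. Their medians in replicates 1 and 2 were 16 and 23 at near sites, 20 and 29 at gene ends, 16 and 24 inside genes and 15 and 24 far from genes. The median width of near sites was 183 bp, against 246 bp at gene ends. Of near sites 1.89% were wider than 500 bp, against 9.18% at gene ends. Several summits were listed for 12.8% of near sites in replicate 1 and 12.4% in replicate 2, against 32.0% and 29.7% at gene ends. Among the strongest 10% of each peak list were 9.80% and 10.8% of near sites, against 14.7% and 16.5% of gene end sites and 12.7% and 17.3% of far sites.

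**Figure D1:**
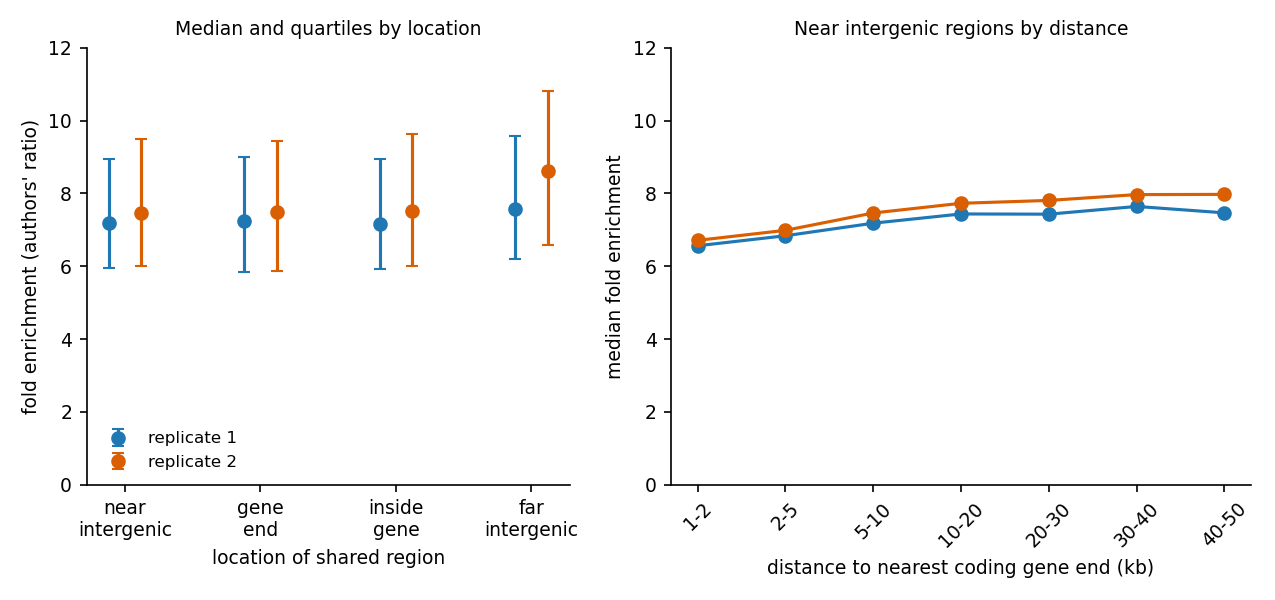
Left, fold enrichment of shared regions by location, with points at the median and bars from the lower to the upper quartile, for each replicate. Right, the median of near intergenic regions by distance to the nearest coding gene end, which lies between 6.56 and 7.64 in replicate 1 and between 6.71 and 7.97 in replicate 2, lowest at 1 to 2 kb.

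The replicates gave close values at most near intergenic sites. The log2 ratio of replicate 2 over replicate 1 had a median of 0.04 with an SD of 0.32 over the 10218 sites. The fold enrichments lay within 2-fold of each other at 99.8% of sites, and 23 sites lay beyond. Only sites with a peak in both lists enter these ratios, a choice that itself favours close values. Across sites, which share library and depth, the rank correlation of the fold enrichments was 0.72, against 0.81 at gene ends, 0.73 inside genes and 0.73 far from genes. Replicate 1 had 11878 near intergenic peaks, and 87.8% of them had a counterpart in replicate 2, against 92.8% at gene ends, 88.9% inside genes and 91.9% far from genes. Replicate 2 had 13728, and 74.7% of them had a counterpart in replicate 1, against 83.4%, 75.2% and 67.8% in the same order. Sharing followed strength within the near sites. In the weakest 10% of the replicate 1 list 67.3% were shared and in the strongest 10% 100%, and in replicate 2 these shares were 38.0% and 99.8%. Unshared near intergenic peaks had median fold enrichments of 5.90 in replicate 1 and 5.57 in replicate 2.

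The largest gains in replicate 2 were at weak sites of replicate 1. The site near Sema6d, a semaphorin gene, had 7 reads and a fold enrichment of 4.34 in replicate 1, and 25 reads and 10.9 in replicate 2. Sites near Fryl, Bmpr1a, Ifngr1 and Qtrt2 followed, with log2 ratios of 1.24, 1.201, 1.17 and 1.14. In the other direction stood a site near Ccn2, a matricellular protein gene, with 11.9 in replicate 1 and 5.71 in replicate 2. Sites near Tmem170b, Kcnh2, the interferon-inducible GTPase gene Tgtp1, and Gsdma2 had log2 ratios of -1.06, -1.06, -1.02 and -0.98. All 10 held 7 to 39 reads in either replicate, so their ratios rest on few reads.

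The sites were densest next to genes, while those farther out were slightly stronger. The median distance to the nearest coding gene end was 11429 bp, with quartiles at 5141 and 23005 bp, and 45.4% of the sites lay within 10 kb. Per Mb of sequence lying at each distance there were 25.6 sites at 1 to 2 kb, 20.8 at 2 to 5 kb, 21.0 at 5 to 10 kb and 17.8 at 10 to 20 kb. Further out the density was 13.9 at 20 to 30 kb, 13.1 at 30 to 40 kb and 10.9 at 40 to 50 kb. Own peaks of either replicate showed the same order at both ends of the range, with 30.0 and 34.4 per Mb at 1 to 2 kb and 12.4 and 14.9 per Mb at 40 to 50 kb in replicates 1 and 2. At 1 to 2 kb the median fold enrichments were 6.56 and 6.71, and at 30 to 40 kb they were 7.64 and 7.97. The median read number at the summit did not follow it, with 17 and 24 reads at 1 to 2 kb and 16 and 23 at 30 to 40 kb.

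The sites were denser on the upstream side of genes. The strand of the nearest gene was known for 8013 of the sites, and 4596 of them, 57.4%, lay upstream of a gene start, where 54.2% of the sequence lies. The densities were 18.1 sites per Mb upstream and 15.9 per Mb downstream, a ratio of 1.14, and the ratio was 1.13 for replicate 1 peaks and 1.12 for replicate 2 peaks. The upstream excess lay beyond 5 kb, with ratios between 1.19 and 1.28 in the 5 bins from 5 to 50 kb. At 2 to 5 kb the order was turned round, with 19.5 sites per Mb upstream and 21.6 per Mb downstream, and both replicates showed this on their own with ratios of 0.92 and 0.95. Upstream sites had median fold enrichments of 7.16 and 7.44, and downstream sites 7.33 and 7.53, a gap within that between replicates. Gaps between coding genes also differed by the direction of their flanking genes. Gaps with a gene start on both sides held 19.2 sites per Mb, those between genes in the same direction 16.2 and those with a 3' end on both sides 15.3.

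**Figure D2:**
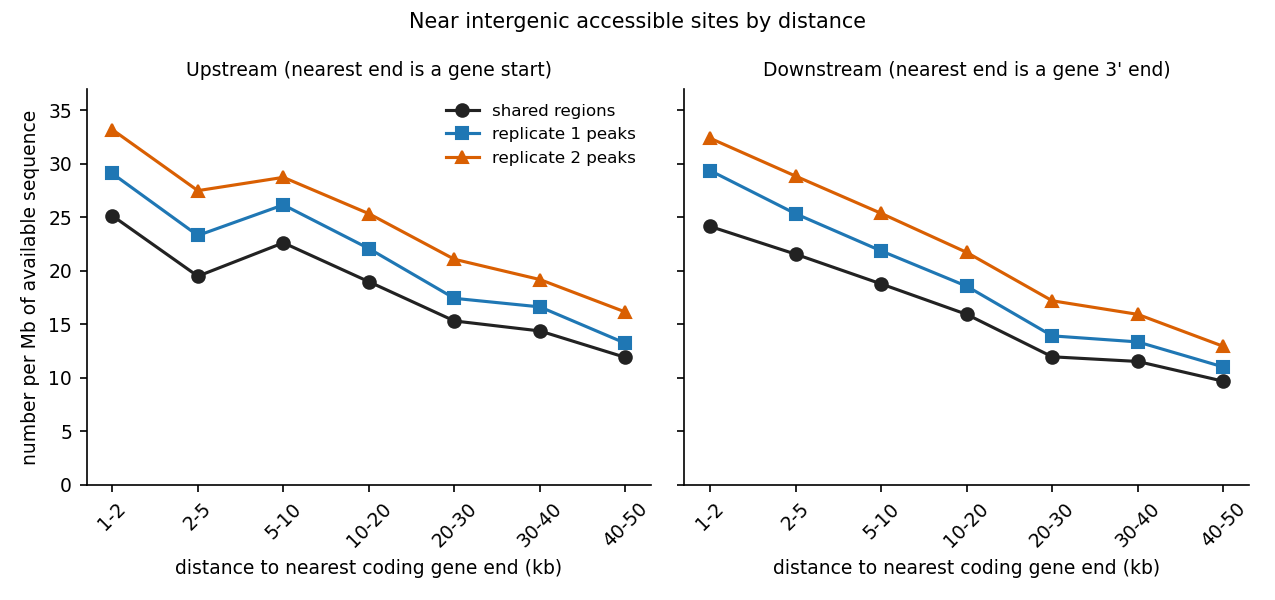
Number of near intergenic sites per Mb of available sequence by distance to the nearest coding gene end, upstream of gene starts (left) and downstream of gene 3' ends (right), for shared regions and for each replicate's own peaks. Shared regions fall to 11.9 per Mb upstream and 9.69 per Mb downstream at 40 to 50 kb, and are lower upstream than downstream at 2 to 5 kb.

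Chromosomes differed several-fold in near intergenic sites. The X had 3.76 sites per Mb of near intergenic sequence, with 4.38 per Mb in replicate 1 peaks and 6.01 per Mb in replicate 2 peaks. Autosomes lay between 11.96 per Mb on chromosome 14 and 24.3 per Mb on chromosome 17, which holds the major histocompatibility complex.

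The 10218 sites were assigned to 5334 of 21523 coding genes, or 24.8%. Of these genes 2946 had 1 site, 1223 had 2, 545 had 3 and 280 had 4. The 340 genes with 5 or more sites, 1.58% of all coding genes, held 2071 sites, 20.3% of the total. Genes with more near intergenic sites more often had open chromatin at an end of their own. Such an open end, a shared region less than 1 kb away, was found for 48.1% of all coding genes and for 46% of the 19302 genes with any sequence 1 to 50 kb away. Among these, the share was 40.0% of genes with no site, 57.6% with 1, 63.6% with 2, 69.5% with 3 to 4 and 74.1% with 5 or more. With replicate 1 peaks alone it was 74.2% at 5 or more and 40.5% at none, and with replicate 2 peaks alone 75.2% and 41.1%. Genes with many sites also had more room, with a median of 58.1 kb of near sequence at 5 or more sites and 15.9 kb at none. Among genes with over 49 kb of such sequence the open end share was 75.6% with 5 or more sites and 22.4% with none, and with 25 to 49 kb it was 74.3% and 28.0%. In genes with 5 to 25 kb the order broke at 5 or more sites, where 55% of 20 genes had an open end.

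**Figure D3:**
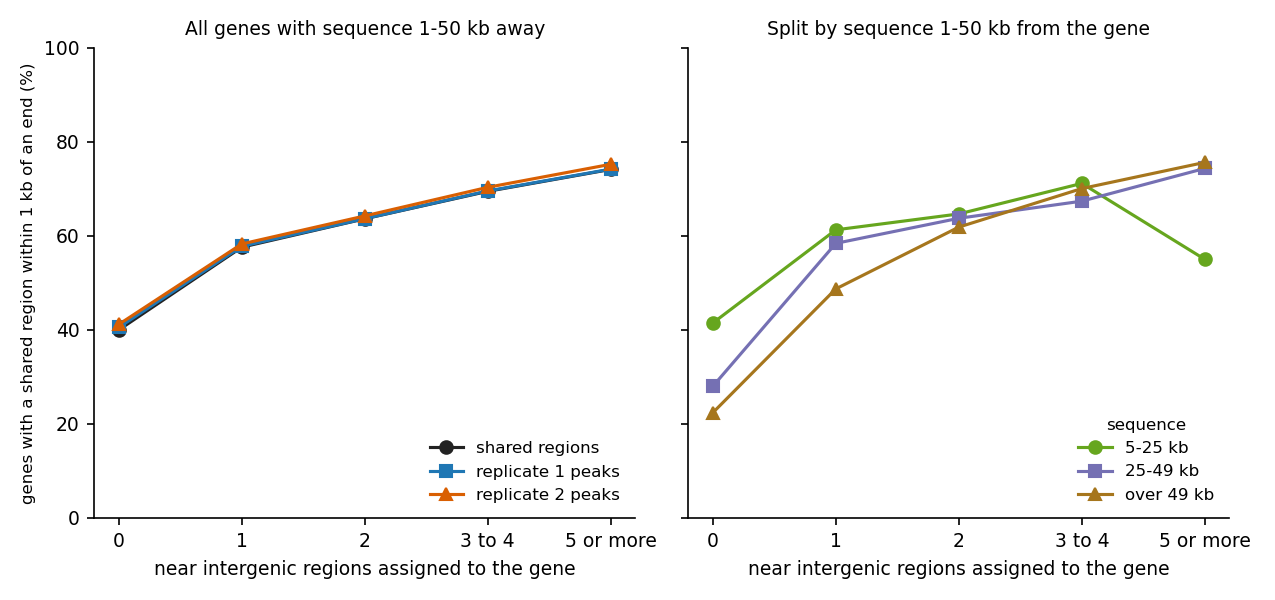
Share of coding genes with a shared region within 1 kb of either end, by the number of near intergenic sites assigned to the gene. Left, shared regions and each replicate's own peaks. Right, shared regions with genes split by how much sequence lies 1 to 50 kb away, where genes with over 49 kb stand at 22.4% with none and 75.6% with 5 or more.

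Gene lists of dendritic cell identity and of stimulus response were set beside all coding genes. They came from 21 lists with 396 distinct genes, of which 190 had a near intergenic site, and Mx1, Mx2 and Cxcl11 were not matched in the annotation used. The lists were chosen with earlier results of these data known, so their counts describe the genes and test nothing. Lists of housekeeping, myeloid, plasmacytoid and NK cell genes also stood above the 24.8% and the 17.2 sites per Mb of all coding genes. In share alone so did T cell, B cell and hepatocyte genes, at 26.7%, 30.8% and 26.7%. Most of the 21 lists stood above the 24.8%, so a high count is not particular to dendritic cell genes. A gene whose neighbours lie close has little or no sequence 1 to 50 kb away that can be assigned to it. What it has lies close to gene ends, where sites are denser, at 25.6 per Mb at 1 to 2 kb against 10.9 at 40 to 50 kb. The densities of the lists were not matched for distance. The amount of this assignable sequence is given below for most named genes with no site.

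**Figure D4:**
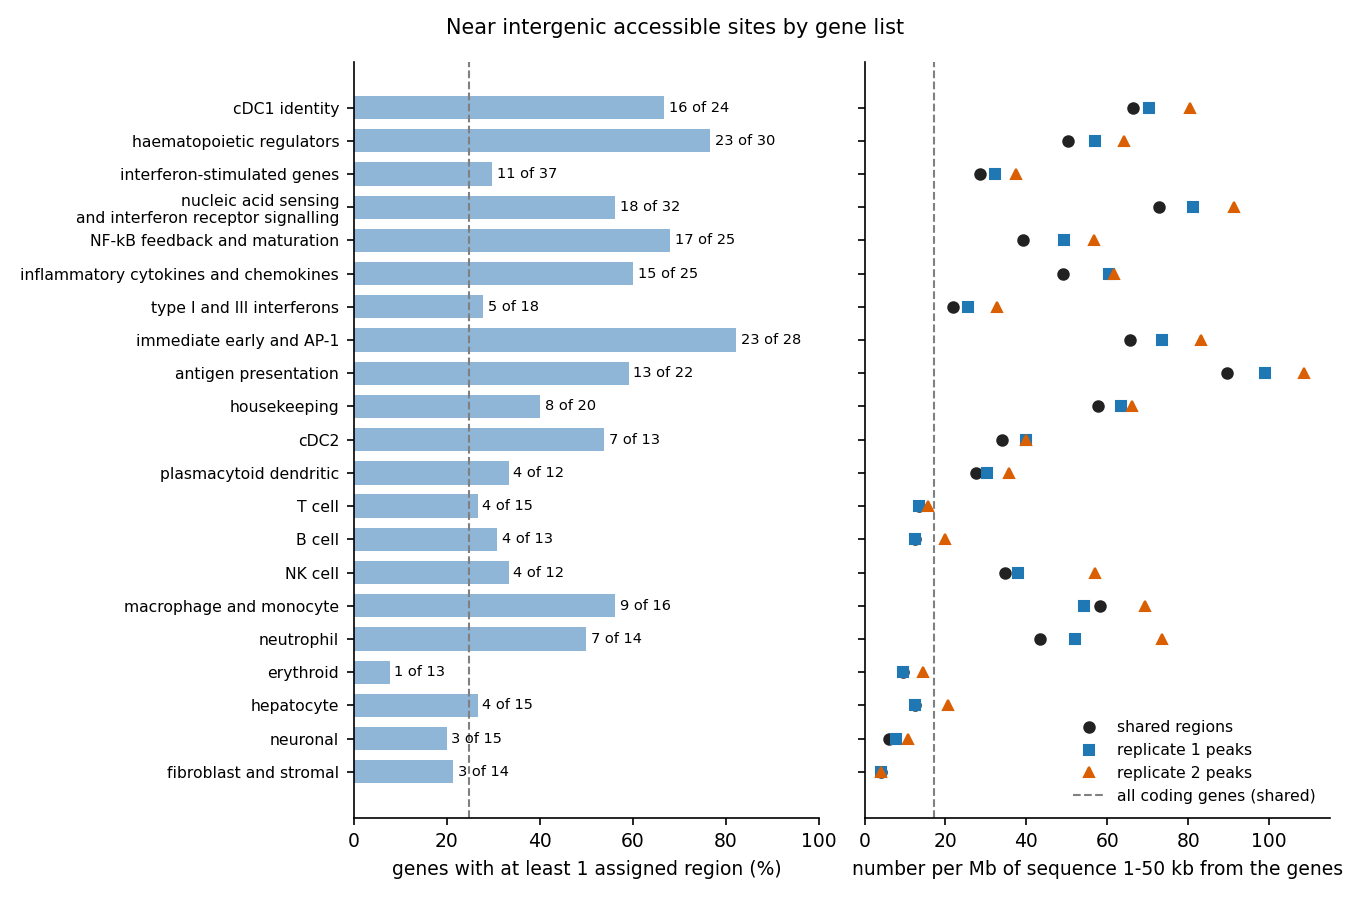
Left, share of genes in each list with at least 1 near intergenic shared region assigned, with the counts beside the bars. Right, sites per Mb of the sequence lying 1 to 50 kb from the listed genes, for shared regions and each replicate's own peaks. The dashed lines mark all coding genes, 24.8% and 17.2 per Mb.

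Of 24 genes of cDC1 identity, 16 had a near intergenic site, against 24.8% of all coding genes, with 52 sites at 66.4 per Mb. Irf8, the interferon regulatory factor that cDC1 need throughout their life, had 9 sites, of which 7 lay downstream in the gap toward Foxf1. The upstream sites lay 26961 bp and 16275 bp from the gene, with fold enrichments of 11.9 and 9.87 for the first and 10.5 and 9.53 for the second. Downstream, the sites lay 27.1, 32.4, 38.0, 38.4, 41.0, 56.5 and 60.1 kb from the gene start. The site at 32.4 kb (chr8:120768518-120768946) was the best covered, with 50 reads and a fold enrichment of 10.7 in replicate 1 and 64 reads and 10.2 in replicate 2. An enhancer at this distance is known for its dependence on Batf3 in cDC1. The site at 41.0 kb had fold enrichments of 7.62 and 8.03 and that at 56.5 kb had 7.06 and 5.38, and enhancers named for these distances are also known in dendritic cells and their progenitors. The weakest of the 9 was at 38.0 kb with 4.18 and 4.26.

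Batf3, the AP-1 family factor that keeps Irf8 expressed in cDC1, had 9 sites and no shared region within 1 kb of its own ends. Of these 8 lay downstream, 2370 to 22932 bp from the gene, and the strongest (chr1:191122854-191123116) had fold enrichments of 8.84 and 7.94. Of the downstream sites, 3 lay in or within 1 kb of the lncRNA gene Gm46178, at 6.81 to 8.84 in replicate 1 and 7.58 to 7.94 in replicate 2. Id2, an inhibitor of E proteins needed by cDC1, had 7 sites. The 4 sites within 6 kb of Id2 were low in fold enrichment, between 3.38 and 4.41 in replicate 1 and between 2.93 and 3.83 in replicate 2. Those 44434 to 47585 bp upstream reached 7.35 and 8.14. Tlr3, a sensor of double-stranded RNA in endosomes, had 5 sites, the best at 9.34 and 10.4. Xcr1, the chemokine receptor that defines cDC1, had 4 sites upstream at 1344, 1785, 7592 and 11011 bp, with fold enrichments of 8.71, 6.59, 7.11 and 9.55 in replicate 1 and 7.69, 4.88, 7.87 and 9.66 in replicate 2. Cd8a itself had 2 sites, the better at 6.47 and 9.66, and no open end. Itgae, with 5.43 kb of assignable sequence, had neither a near intergenic site nor an open end, and Flt3, with 15.01 kb, had only an open end. Clec9a and Zbtb46 had no open end and no sequence in which a near intergenic site could be assigned to them.

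**Figure D5:**
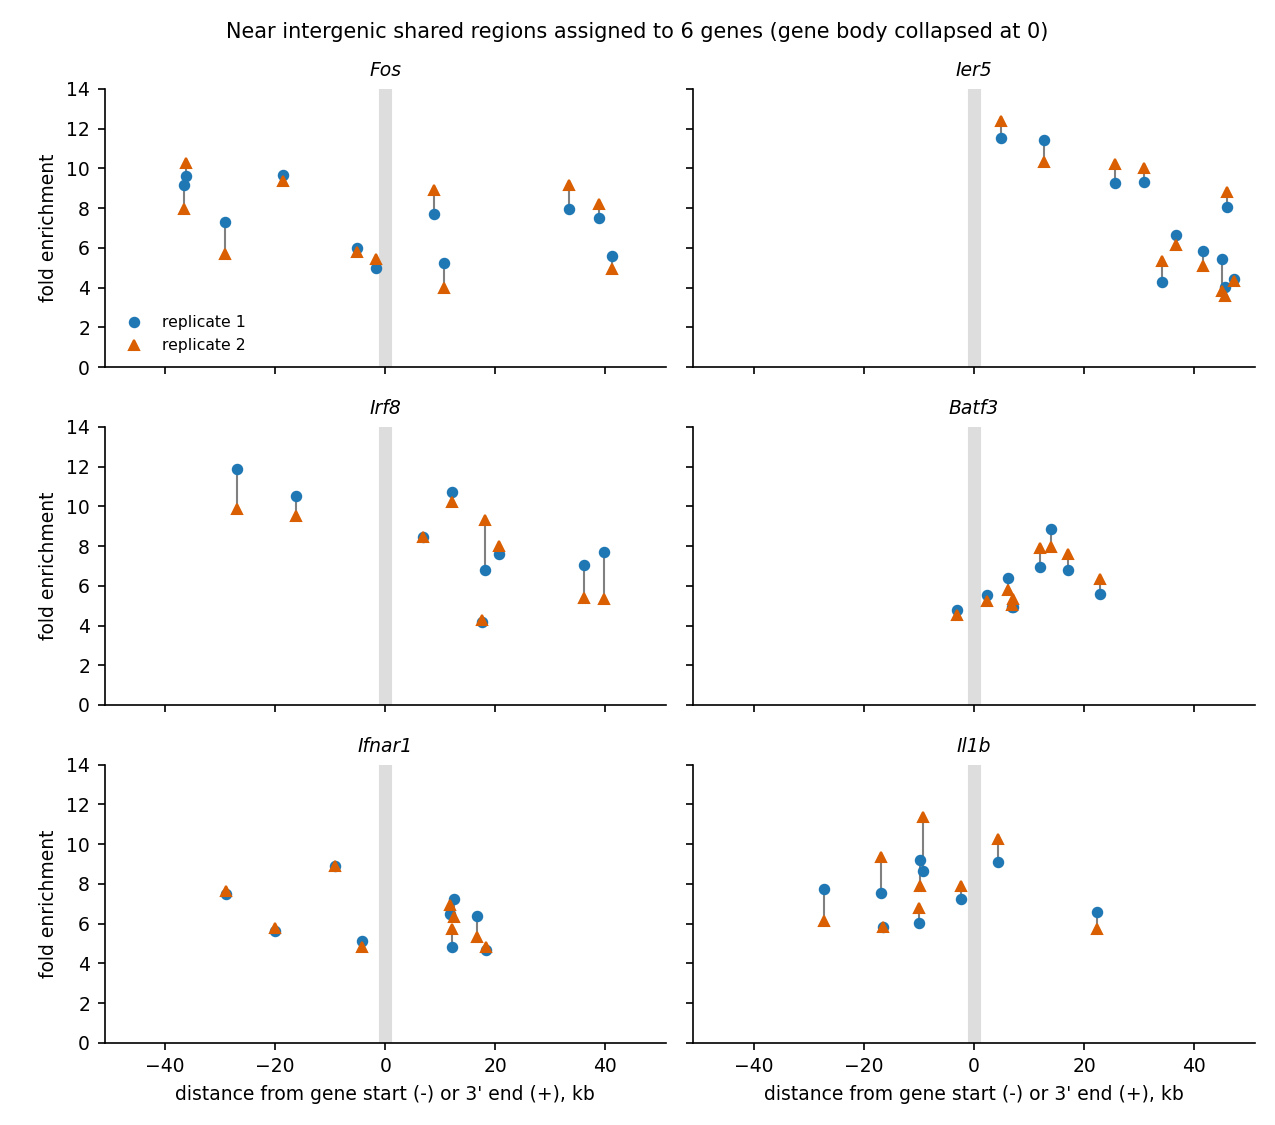
Fold enrichment in each replicate of the near intergenic shared regions assigned to 6 genes, by distance from the gene start (negative, upstream) or the gene 3' end (positive, downstream), with the gene body collapsed to the grey band. Irf8, Batf3 and Ier5 have most or all of their sites downstream, whereas Il1b has 7 of 9 upstream.

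Of 30 haematopoietic regulators, 23 had a site, at 50.3 per Mb. Bach1, a repressor of haem and antioxidant genes, Irf1, an activator of interferon response genes, and Myc, a growth regulator, had 7 sites each. Their best sites had fold enrichments of 11.6 and 14.7 for Bach1, 9.76 and 11.0 for Irf1, and 8.11 and 7.73 for Myc, where a site of slightly lower score had 11.4 and 12.2. Spi1, which encodes PU.1, had 1 site, and Runx2, Zeb2 and Ets1 had neither a site nor an open end.

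Of 32 genes that sense nucleic acids or act below interferon receptors, 18 had a site, at 72.7 per Mb. Ifnar1, which encodes a subunit of the receptor for type I interferons, had 9 sites. Of these 4 lay upstream, with fold enrichments between 5.15 and 8.90 in replicate 1 and between 4.83 and 8.88 in replicate 2. The other 5 lay downstream within 11713 to 18221 bp of the gene, on the side of the interferon gamma receptor gene Ifngr2, between 4.70 and 7.22 in replicate 1 and between 4.81 and 6.92 in replicate 2. Ifnar2, the partner chain, had 5 sites, all upstream, the best at 7.22 and 7.84. Ifngr1, the ligand-binding chain for interferon gamma, had 9 sites, 8 of them upstream. Irf5, a mediator of Toll-like receptor responses, had 3 sites upstream, the strongest at 9.77 and 7.75, and no open end. Irf3 and Irf9, the other factors immunoprecipitated in the series, had an open end and no near intergenic site, and Irf7 had neither. Irf3 had no assignable sequence, Irf9 had 2.99 kb and Irf7 0.29 kb, so a site was impossible at Irf3 and had little room at the others.

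Interferon-stimulated genes stood near the background in the share of genes with a site, but above it in sites per Mb. Of 37 genes, 11 had a site, 29.7% against 24.8% of all coding genes, and none had 5 or more. Their 16 sites stood at 28.6 per Mb, against 17.2 per Mb for all coding genes, with distance from gene ends not matched. Own peaks of replicates 1 and 2 stood at 32.1 and 37.5 per Mb, against 20.0 and 23.1 for all coding genes. Usp18, an ISG15 protease that also limits interferon receptor signalling, had 3 sites, the best at 7.91 and 8.72. Gbp3, a guanylate-binding protein gene, had 2, the better at 13.4 and 12.6, and Ddx58, which encodes the RNA sensor RIG-I, had 2, the better at 11.5 and 13.99. Isg15, Ifit1, Ifit3 and Cxcl10 had an open end and no near intergenic site, but Ifit1 and Cxcl10 had no sequence for one, Isg15 had 0.22 kb and Ifit3 3.24 kb. Other genes of the list had more room and still no site. Isg20 and Gbp2, with 49.1 and 30.5 kb of assignable sequence, had an open end only. Iigp1, Cmpk2, Ifi44 and Rsad2, with 73.7, 54.3, 52.4 and 18.0 kb, had neither a site nor an open end. Open ends were found at 27 of the 37 genes, and among all coding genes, too, open ends were more frequent than near sites, at 48.1% against 24.8%. The share of this list fell below that of all coding genes when whole regions had to lie 1 kb or more from coding genes, at 24.3% against 24.6%. It was also below for sites at 2 to 50 kb, at 21.6% against 22.7%, and without sites at noncoding genes, at 18.9% against 20.7%.

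The interferon genes themselves, which are silent in most unstimulated cells, had sites at 5 of 18 genes, 27.8% against 24.8% of all coding genes. The density was 21.9 per Mb, against 17.2 per Mb for all coding genes, so both stood near the background. None of those 5 genes had an open end, against 57.6% with an open end among all coding genes with 1 site. Ifnb1, the interferon-beta gene, had a site 6214 bp downstream (chr4:88515693-88515929) with fold enrichments of 11.2 and 13.3. The interferon alpha family on chromosome 4 had sites next to Ifnab, the best at 10.7 and 10.6, next to Ifna13 at 12.53 and 10.1, and next to Ifna1 at 8.07 and 6.97. These genes are near-identical copies, and how reads that fit several copies were placed is not stated in the sources used here. Ifnl3, an interferon lambda gene, had a site at 10.4 and 7.02, while Ifna2, Ifna4 and Ifnl2 had none.

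Of 25 inflammatory cytokine and chemokine genes, 15 had a site, at 49.1 per Mb, and 8 of those 15 had no open end. Among all coding genes, 57.6% of those with 1 site and 74.1% of those with 5 or more had an open end. Open ends were found at 12 of the 25 genes, near the 48.1% of all coding genes. Il1b, which encodes interleukin 1 beta, had 9 sites and no open end. Of these 7 lay upstream, and the best of them (chr2:129380268-129380486), 9213 bp from the start, had fold enrichments of 8.63 and 11.4. Il6, an inflammatory cytokine gene, had 5 sites upstream at 1098 to 40185 bp, the strongest 19308 bp away at 9.86 and 12.2. Il10, an inhibitory cytokine gene, had 5 sites, the best scoring at 11.3 and 9.67 and another at 8.85 and 13.6, and no open end. Tnf, Il18 and Il23a had open ends and no near intergenic site, with 0.53, 6.25 and 2.27 kb of assignable sequence.

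Among 25 genes of NF-kB feedback and dendritic cell maturation, 17 had a site, at 39.1 per Mb. Cd83, a maturation marker, and Tnip3, an inhibitor of NF-kB signalling, had 4 each, with best values of 11.4 and 11.1 at Cd83 and 10.1 and 11.994 at Tnip3. Nfkbia, which encodes the inhibitor of NF-kB alpha, had 3, the best at 10.4 and 8.78. The costimulatory genes Cd40, Cd80 and Cd86 had open ends and no near intergenic site, with 28.3, 1.37 and 15.3 kb of assignable sequence.

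Immediate early and AP-1 genes, which many stimuli induce within minutes, had the highest share of any of the 21 lists in the shared regions, with 23 of 28 genes at 65.6 per Mb. Ier5, an immediate early gene, had 11 sites, all downstream on the side of Cacna1e, and Fos, the AP-1 subunit gene, had 11 on either side. At Ier5 the site nearest the gene (chr1:155091360-155091658) was the strongest, at 11.5 and 12.4, and the 9 sites 25634 to 47199 bp away lay between 4.01 and 9.32 in replicate 1 and between 3.57 and 10.2 in replicate 2. At Fos 6 sites lay upstream toward Tmed10 and 5 downstream toward Jdp2, and the best scoring (chr12:85437615-85437870) lay 36147 bp upstream with 9.60 and 10.3. Another Fos site had a fold enrichment of 9.65 in replicate 1. The Fos sites nearest the start, 1601 and 5057 bp away, were among its weaker ones, at 4.97 and 5.98 in replicate 1 and 5.46 and 5.77 in replicate 2. Atf3, a stress-induced member of the ATF family, had 7 sites, all upstream, the best scoring at 7.71 and 8.03, and another had 11.5 in replicate 2. Jund, Nr4a2 and Zfp36 had open ends only, with 8.49, 49 and 3.06 kb of assignable sequence. The order of the lists changed under some settings: for sites at 2 to 50 kb the share of this list was 64.3%, against 73.3% of haematopoietic regulators, and in the better-scoring 50% of each peak list it was 53.6%, against 60%.

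Antigen presentation genes had the highest density, with 89.5 sites per Mb and 13 of 22 genes with a site, in 0.313 Mb of near intergenic sequence. H2-Ab1 and H2-Aa, which encode the chains of a class II molecule, had 4 and 3 sites, with best values of 6.50 and 6.92 at H2-Ab1 and 6.52 and 6.50 at H2-Aa. Cd1d1, which presents lipids, had 3 sites, the best at 12.3 and 11.2, and no open end. B2m, Tap1 and Tapbp had open ends, and none of them had sequence for a near intergenic site. Of 20 housekeeping genes 8 had a site, at 57.8 per Mb. Actb, the beta-actin gene, had 6, the best at 10.6 and 12.8, and Rpl3, a ribosomal protein gene, had 4 at up to 6.39 and 6.82. Hprt, with 37.7 kb of assignable sequence, and Tbp, with 1.07 kb, had none, and Gapdh had no sequence for one.

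Lists of other cells set a scale for the label of the samples. Macrophage and monocyte genes had sites at 9 of 16 genes and 58.1 per Mb, led by the chemokine receptor gene Ccr2 with 7 and the haem oxygenase gene Hmox1 with 6. Genes of cDC2, the other conventional subset, had sites at 7 of 13 genes and 34.0 per Mb. Sirpa, a cDC2 surface marker, had a site with 16.6 and 15.2, another with 15.2 and 14.1, and no open end. Neutrophil genes had sites at 7 of 14 and 43.3 per Mb, NK cell genes at 4 of 12 and 34.8 per Mb, and plasmacytoid genes at 4 of 12 and 27.5 per Mb. T cell genes had 4 of 15 at 13.4 per Mb and B cell genes 4 of 13 at 12.46 per Mb. Of the T cell genes Cd5 and Cd28 led with 2 sites each, the best at 7.25 and 11.2 for Cd5 and 6.50 and 7.90 for Cd28, and Cd4 had 1 at 9.80 and 9.93. Of the B cell genes Bank1 had 2, the best at 8.75 and 9.49, and Ms4a1 had 1 at 12.2 and 12.3. Neither a site nor an open end was found at 10 of 15 T cell genes, Cd3e, Cd3g and Lck among them. The same held for 8 of 13 B cell genes, Cd79a and Pax5 among them. Open ends were found at 3 of the T cell genes and 4 of the B cell genes, against 48.1% of all coding genes. The share of all coding genes with neither was not counted, but 75.2% of them had no site. Of the 13968 genes with assignable sequence and no site, 40.0% had an open end, so genes with neither are common. Cd3e and Pax5 had 20.2 and 70.9 kb of assignable sequence, Cd3g, Lck and Cd79a only 0.978, 2.43 and 2.84 kb. Erythroid genes had 1 of 13 at 9.59 per Mb, hepatocyte genes 4 of 15 at 12.4, neuronal genes 3 of 15 at 6.14 and fibroblast genes 3 of 14 at 4.04. Sites near the NK genes Klrb1c and Ncr1 numbered 5 and 4, with best values of 6.66 and 9.85 at Klrb1c and 11.6 and 9.46 at Ncr1. How far other cells in the sample contribute to such sites was not tested.

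The coding genes with the most sites were of mixed kinds. Exoc6, which encodes a subunit of the exocyst that tethers vesicles, led with 13, all upstream of its start in the gap that ends at Hhex, a homeobox gene of blood development. These sites spread over 1556 to 47699 bp, and the farthest (chr19:37488948-37489179), nearly midway to Hhex, had the highest fold enrichment of them in replicate 1, with 12.2 and 10.4 in the 2 replicates. The lncRNA gene Gm32294 lay at 4 of them. Lrrc8c, a subunit gene of the volume-regulated anion channel, had 12 sites, the best scoring at 8.27 and 9.02, while the fold enrichments of the others reached 9.77 in replicate 1 and 11.3 in replicate 2. Actr3, a subunit gene of the actin-nucleating Arp2/3 complex, had 11, of which 10 lay upstream. Zfp825, Tex44, Map4k4 and Macc1 had 10 each, and 9 of the Tex44 sites lay on the side of Ptma, the prothymosin alpha gene. A further 9 sites each were assigned to Slc28a3, S1pr1, Qrsl1, Dennd1b, Pmaip1, Slc15a1 and Irf2bp2, beside Irf8, Il1b, Batf3 and Ifngr1. All 9 sites of Qrsl1, a mitochondrial translation gene, lay downstream on the side of the cDC1 gene Cd24a, 2507 to 46738 bp from Qrsl1, with fold enrichments between 4.77 and 12.1 in replicate 1 and between 4.71 and 12.04 in replicate 2. Slc28a3, a nucleoside transporter gene, held the strongest site among these 20 genes (chr13:58516373-58516652), with 16.0 and 17.7. S1pr1, the receptor for sphingosine 1-phosphate that guides cells out of tissues, had best values of 11.7 and 13.5.

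The 12 highest scoring near intergenic sites lay next to none of these 20 genes. Near Abcb11, the bile salt export pump gene of liver, a site of 175 bp (chr2:69355515-69355689) had fold enrichments of 37.1 and 33.8. On the X, a site near the kinase gene Pak3 (chrX:143482981-143483132) had the highest fold enrichment of all, 49.01 and 37.7. Sites near Rpusd4, Eea1, Csf2ra and Dpy19l2 had 24.9, 34.8, 28.9 and 31.5 in replicate 1 and 23.7, 29.4, 25.4 and 31.7 in replicate 2. Csf2ra encodes a chain of the receptor for GM-CSF, a growth factor of dendritic cells, and its site lay 17540 bp downstream. Near Ly6c2, a surface antigen gene, a region of 788 bp had 4 summits in replicate 1 and 3 in replicate 2, at 13.5 and 10.7. The other 5 of the 12 highest lay near Rimbp3, Tra2a, Rpp21, Tcstv3 and Tcp10c. Fold enrichments over 20 were found at 18 near sites in replicate 1 and 13 in replicate 2, against 28 and 18 among the fewer far sites. Whether regions known to attract reads in any library were removed upstream is not stated in the sources used here.

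A share of these sites is intergenic only with respect to coding genes. Of the 10218, 1207 or 11.8% lay within 1 kb of an end of a noncoding gene, 1328 or 12.997% lay inside such a gene further from its ends, and 7683 or 75.2% lay away from any annotated gene. Their median fold enrichments were alike, at 6.93, 7.18 and 7.25 in replicate 1 and 7.11, 7.61 and 7.51 in replicate 2. Transfer RNA genes stood apart among the kinds. Of 258 transfer RNA genes lying 1 to 50 kb from a coding gene, 44.2% had a near intergenic site within 1 kb, against 14.3% of 3579 lncRNA genes, 11.9% of 226 transcribed pseudogenes and 11.8% of 330 small nuclear RNA genes. Shares were 9.38% of 192 microRNA genes, 8.04% of 311 small nucleolar RNA genes and 3.89% of 4340 pseudogenes. A site within 1 kb of several genes counted for each of them, which raises the share where genes lie close together. Thus 114 transfer RNA genes had a site within 1 kb, while 86 were the nearest noncoding gene to a site. The 113 sites at transfer RNA genes were weak in fold enrichment, with medians of 5.76 and 5.72 against 7.21 and 7.48 for the other near sites. Their summits held more reads, with medians of 20 and 27 against 16 and 23. Chromosome 13 carried 30 of them.

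Among sites within 1 kb of an end of a lncRNA or microRNA gene the highest scoring lay at Mir6236 near Cspg5, at 25.1 and 23.3. The site at Gm17767 near Nabp1 had 17.2 and 15.7. A site over an inner start of the lncRNA gene Gm15564, over 1 kb from the ends of that gene and near Kpna1, scored higher than the Gm17767 site and had 17.2 and 14.3. The site at 1700034H15Rik near Slc30a1, a zinc exporter gene, had 13.1 and 16.98. Dancr near Usp46 had 11.8 and 13.02, and its whole start window lay inside the region. Further lncRNAs, chosen after their values were seen, were Oip5os1 with 11.0 and 14.4 and Kantr with 11.7 and 13.9. Malat1 and Neat1, abundant nuclear RNAs, had only near intergenic sites of low fold enrichment. The 2 at Malat1 had 3.22 and 3.50 in replicate 1 and 3.37 and 3.62 in replicate 2. The 1 at Neat1 had 3.06 and 3.09.

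Part of the near intergenic sites came in groups. The median distance from a site to the nearest other near intergenic site, on either side, was 7769 bp. How far this spacing follows from the layout of the sequence 1 to 50 kb from genes was not tested. Runs of at least 3 sites with gaps of at most 12 kb and 500 bp numbered 904 and held 3508 sites, 34.3% of the total, and 191 runs had 5 or more. The longest run had 14 sites over 51.2 kb between Gm40363 and Pdia4, a protein disulfide isomerase gene, with fold enrichments of 3.45 to 10.2 in replicate 1 and 2.97 to 7.98 in replicate 2. The 13 sites of Exoc6 came next. A run of 12 sites over 57.2 kb lay between Plekhg6 and Cd9, a tetraspanin gene, with up to 8.70 and 7.28. Runs of 10 lay near D5Ertd579e and Bloc1s4, over 38.9 kb, and near Btn1a1 and Abt1 over 23.0 kb, where 8 of the 10 sites lay within 1 kb of a transfer RNA gene. Median fold enrichments in these 5 runs lay between 5.25 and 6.51 in replicate 1 and between 4.59 and 7.44 in replicate 2, below the 7.19 and 7.46 of all near intergenic sites.

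At the limits of the definition, the sites just inside 1 kb lay near Timm8a2 and Scgb1a1, at 1001 and 1002 bp, with fold enrichments of 6.66 and 7.79 in replicate 1 and 5.04 and 7.07 in replicate 2. Regions just outside it lay near Upk1a and Smad6, at 997 and 999 bp, with 4.81 and 7.61 in replicate 1 and 5.91 and 7.36 in replicate 2. Just inside 50 kb lay sites near Ep300 and Gcnt1, at 49972 and 49990 bp, with 5.15 and 6.23 in replicate 1 and 5.81 and 4.76 in replicate 2. Just outside lay regions near Gpc5 and Elovl4, at 50025 and 50034 bp, with 4.40 and 11.0 in replicate 1 and 4.69 and 13.4 in replicate 2.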

How the data were processed

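Peaks were called on each ATAC-seq sample by itself, and each deposited list has 1 line per summit. Per the submitters' processing notes the tools included MACS2, HOMER 4.9.1, Picard 2.8.1, BWA 0.7.17 and Trimmomatic, on build mm10, with no roles given. Read shifting, duplicates, excluded regions and the threshold are not given in the sources used here and could change which weak peaks are listed. The authors' deposited values are a fold enrichment (a ratio to the local background), −log10 p and −log10 q for each peak, and a score of 10 times −log10 q. They served only to rank and describe peaks inside their own list. The deposited summit offset placed the highest summit.

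Summits were joined to peaks, and peaks of both lists that overlapped by 1 bp or more were merged. The fold enrichment of a shared region is that of its highest scoring peak in each list. Summit reads were solved from the Poisson p and the fold enrichment, and the p came back within 0.001 on the −log10 scale. Gene positions and sequences came from RefSeq GRCm38.p6. Of the coding genes, 108 with positions before 3 Mb, where no peak lies, were left out, and the strand was known for 17274 of 21523 from the table of start windows. Genes sharing an end were taken in alphabetical order. Density is the number of sites per Mb of sequence outside coding genes at that distance. Without a genome sequence, the bases of most sites were not searched here. IRF binding was not analysed here.

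The sites and gene lists were chosen with earlier results of these data known. Genes named are the 20 with the most sites, the 12 highest scoring sites, the leading 3 genes and up to 3 with none in each list, the 10 highest scoring sites at lncRNA or microRNA genes, those at the limits, the 5 largest differences between replicates each way and the 5 longest runs. Others, such as defining markers and genes of the series' factors, were chosen after their values were seen. A few genes that this rule names are not reported here. No test was made, since 2 samples of a single condition allow none. Alternatives changed the overlap, the threshold, the position, the distance limits, the treatment of noncoding genes and the replicates used. Python 3.11.15, numpy 2.4.6, pandas 2.3.3, scipy 1.17.1 and matplotlib 3.10.9 were used, and placement, merging and read recovery were tested on simulated data.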

Additional observations from a re-analysis of the deposited data

How the results depend on the processing

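No paired analysis was possible because the 2 ATAC-seq samples are replicates of a single group and no groups were compared. Keeping only the better-scoring 50% of each list left 4435 sites, raised the median fold enrichment, averaged over replicates, to 9.26 against 7.32, and left 3038 coding genes and 120 listed genes with a site. It also lowered the sites at noncoding genes to 1117 against 2535 and the sites in runs to 589 against 3508, by construction since fewer peaks enter. The ratio of densities at 2 to 5 kb over 10 to 20 kb was then 1.04, against 1.17, and the upstream share 56.9% against 57.4%. Keeping peaks with a −log10 q of 5 or more gave a median fold enrichment of 7.67. Sites at 1 to 20 kb had an upstream share of 56.0%, 1656 sites at noncoding genes and 2020 in runs, and sites at 2 to 50 kb an upstream share of 57.8%. Without sites at noncoding genes the density ratio was 1.203, the upstream share 57.6% and the sites in runs 2178. Using a single replicate, the median fold enrichment lay between 6.80 and 6.98, the density ratio between 1.18 and 1.205, the upstream share between 56.9% and 57.1%, and the sites in runs between 4632 without replicate 2 and 5788 without replicate 1. The 50% threshold moved 12 of the 21 list counts by over 1.5 times, leaving out noncoding genes 3, leaving out replicate 1 2, and limits of 1 to 20 kb 1. The reciprocal overlap of 50%, the highest summit in place of the centre and the demand that whole regions lie outside coding genes moved none of these results. The share of peaks found in both replicates, 81.2% on average, lay between 73.6% and 81.3% under the alternatives that could give a value. The median log2 ratio of the replicates lay between 0.030 and 0.049, against 0.042. The spreads used as limits were an SD of 9.24 points between the shares of the replicates and an SD of 0.32 over sites. Both are wide beside these shifts, so staying within them says little. Neither result can be had from a single replicate. Sites under 7 reads in replicate 1 or 9 in replicate 2 are below the depth of these lists, and sequence of lower mappability can lack peaks for that reason alone.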
